A study of Drosophila melanogaster with 3 samples.

Results

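Translation factors are the proteins that start, extend and end the polypeptide chain on the ribosome. Initiation factors (eIF) bring the initiator tRNA, the mRNA cap and both ribosomal subunits together, elongation factors (eEF) deliver aminoacyl-tRNAs and move the ribosome along, and release factors (eRF) act at the stop codon. The GAGA factor, made from the Trithorax-like (Trl) gene, recognises GA repeats through a zinc finger and helps keep promoters open in Drosophila. The genes described here are the protein-coding genes on the 6 main chromosome arms whose Ensembl symbol starts with eIF, eEF or eRF. There are 54 of them among 13945 protein-coding genes, and the rule that picks them reads the symbol only. They comprise 8 elongation and 2 release factor genes, and the rest are initiation factor genes.

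The data come from ChIP-seq on whole Drosophila melanogaster embryos of both sexes, collected from 0 to 24 h of age. All embryos carried the Trl-MiMIC-GFP insertion, in which an eGFP exon placed in an intron of Trl makes a tagged GAGA factor, and chromatin was recovered with an antibody against GFP. There are 3 biological replicates of this 1 group and no second condition, so translation factor genes are set against all other protein-coding genes. The authors deposited a relaxed list of 30000 peaks for each replicate and for the pooled replicates, which includes background calls, and an optimal list of 4900 peaks thresholded by the irreproducible discovery rate (IDR). Each peak carries the authors' signal value, whose scale is not stated. Peaks were therefore ordered by signal inside each list, rank 1 being the strongest, and the signal itself was not compared. Read depth is unknown, because the lists give no read totals. In whole embryos, fewer cells with a bound site and weaker binding per cell cannot be told apart. A gene is called bound here if at least 1 of its annotated start sites (dm6) had an optimal summit no more than 500 bp away.

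Of the 54 translation factor genes, 23 were bound (42.6%), against 3170 of 13891 other protein-coding genes (22.8%). The strongest 1000 pooled peaks reached 10 translation factor genes (18.5%) and 5.92% of other genes. The top 4900 peaks of replicates 1, 2 and 3 reached 21, 19 and 24 translation factor genes, or 39.5% ± 4.66 (SD, n = 3), and 22.6% ± 0.105 of other genes (SD, n = 3). The lowest replicate among translation factor genes, 35.2%, stood above the highest among other genes, 22.6%. The top 4900 peaks of all 3 replicates held 19 translation factor genes (35.2%) and 16.5% of other genes, and these 19 were all among the 23 bound genes. The remaining 4 bound genes were in the top 4900 of 2 replicates (2 genes) or of 1 replicate (2 genes). No test across genes was made, since neighbouring genes can share a peak and peaks are not independent.

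The sequences under the translation factor summits are shown first, because the DRE was found at more of them than the GAGA factor's own core site. The DNA replication-related element (DRE), TATCGATA, the binding site of the transcription factor DREF, lay within 100 bp of the summit in 9 of 23 bound translation factor genes. The 8 copies below lie nearest to the summit in their gene and are read from the reference genome (RefSeq, dm6) in the gene's sense, 5' to 3', with the DRE in capitals.
eEF1gamma: gcctaggaaaTATCGATAtatcgccgta
eIF1: gcagggcaacTATCGATAagcatttcgt
eIF1A: tgatgatagaTATCGATAgctttagcgg
eIF2A: tactatcgctTATCGATAcaccgcgtac
eIF2gamma: ggcggcactcTATCGATAcgcatcgcag
eIF3a: cggcctgaacTATCGATAacgcagccag
eIF3f1: ccacccgcacTATCGATAggcccttttc
eRF1: tattttaagaTATCGATAatgtcatcgg
The centre of the DRE was 2 bp from the summit at eIF3f1, 3 bp at eIF2gamma, 4 bp at eIF1 and 11 bp at eIF3a. It was 30 bp away at eIF2A, 32 bp at eEF1gamma, 52 bp at eIF1A and 54 bp at eRF1. The ninth gene with a DRE, eIF6, had it 95 bp from the summit. In dm6 the printed stretches lie at chr3R:29220121-29220148 (eEF1gamma), chr3L:3223035-3223062 (eIF1), chr3R:18274453-18274480 (eIF1A) and chr3L:21824866-21824893 (eIF2A). The others lie at chr3R:15263518-15263545 (eIF2gamma), chr3R:4433916-4433943 (eIF3a), chr3R:4714173-4714200 (eIF3f1) and chr3L:20348320-20348347 (eRF1), and the eIF2gamma, eIF3a and eIF3f1 genes are on the minus strand.

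GAGAG, the core of the GAGA factor site (CTCTC on the other strand), lay within 100 bp of the summit in only 3 bound translation factor genes, eIF3c, eIF4A and eIF4E1. The sites at eIF4A and eIF4E1 (chr2L:5982473-5982497, plus strand, and chr3L:9401991-9402015, minus strand, dm6) read as follows in the gene's sense, with the match in capitals.
eIF4A: cgctcggctgCTCTCgcccgttgac
eIF4E1: ttctctttttCTCTCctttcgcatt
At eIF4E1 the site was 16 bp from the summit, and a GAGAGAG match, the only one at a bound translation factor summit, lay elsewhere within 100 bp. At eIF4A it was 57 bp from the summit.

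In shares, the DRE was present at 39.1% of bound translation factor summits and 10% of the 3170 other bound genes, and GAGAG at 13.0% and 28.1%. In the replicates' own top 4900 peaks the DRE was present at 37.8% ± 4.39 of translation factor summits and 9.62% ± 0.427 of other summits (SD, n = 3 each). GAGAG was present at 14.2% ± 1.65 and 27.9% ± 0.452 (SD, n = 3 each). The replicate ranges did not overlap for either motif, but the replicates read mostly the same peaks in the same reference, so this spread covers only the differences between their peak lists. Within 250 bp of the summit GAGAG was found in 6 bound translation factor genes (26.1%) and 48.4% of other bound genes. These motifs, the Ohler 1 core, the E-box and the TATA box were sought on both strands. GAGAGAG holds GAGAG, and no other motif searched contains another.

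The 100 bp on either side of the canonical start site held a DRE in 7 of 23 bound (30.4%) and 6 of 31 unbound (19.4%) translation factor genes, and in 7.50% of all protein-coding genes. Among the 7 was eIF4A, whose canonical start site had no optimal summit within 500 bp. Over all 54 translation factor genes the share was 24.1%, close to the 28.3% of cytosolic ribosomal protein genes. GAGAG was present at 7.41% of translation factor start sites, 14.1% of cytosolic ribosomal protein start sites and 22.8% of all start sites. Split by binding, GAGAG was at 1 of 23 bound (4.35%) and 3 of 31 unbound (9.68%) translation factor start sites. Among other genes it was at 26.7% of bound and 21.8% of unbound start sites. The Ohler 1 core GGTCACAC, found near start sites of widely expressed genes, lay at 3 bound summits, those of eEF1alpha1, eIF2A and eIF5B (13.0%, against 5.8% of other bound genes). Around start sites the order was the other way, with the Ohler 1 core at 4.35% of bound translation factor genes and 8.36% of other bound genes, and it was at 16.1% of unbound translation factor genes. Within 250 bp of the summit the shares were 13.0% and 11.4%. The E-box CAGCTG was found at no bound translation factor summit and at 15.8% of other bound genes. Around start sites the E-box shares were 4.35% and 19.1%. The TATA box TATAAA was at 8.70% of bound translation factor summits and 27.7% of other bound genes within 100 bp, but at 56.5% and 53.1% within 250 bp and at 26.1% and 21.4% around start sites.

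**Figure D1:**
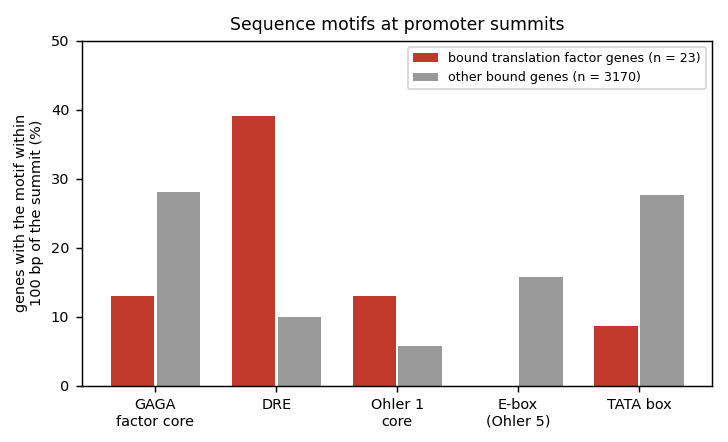
Percent of bound genes with each motif within 100 bp of the promoter summit on either strand, for the 23 bound translation factor genes (red) and 3170 other bound genes (grey). The DRE bar is higher for translation factor genes (39.1% and 10%), and the GAGA factor core bar is lower (13.0% and 28.1%).

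DREs were present at bound and at unbound promoters. A match is a description of the letters and not a site shown to be used. The 100 bases from 80 upstream of the start site to base 20 of the transcript are given for 3 bound genes, eEF1gamma (chr3R:29220092-29220191, plus strand), eIF3f1 (chr3R:4714163-4714262, minus strand) and eRF1 (chr3L:20348275-20348374, plus strand). They are set against those of 3 unbound genes, eEF1delta (chr2L:10232427-10232526, plus strand), eIF4B (chr3L:27858252-27858351, minus strand) and eIF2alpha (chrX:16446974-16447073, minus strand). All are in dm6 coordinates and in the gene's sense, with DRE, Ohler 1 core and TCT initiator matches in capitals.
eEF1gamma: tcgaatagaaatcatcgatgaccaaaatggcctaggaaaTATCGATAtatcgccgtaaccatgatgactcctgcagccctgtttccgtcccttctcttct
eIF3f1: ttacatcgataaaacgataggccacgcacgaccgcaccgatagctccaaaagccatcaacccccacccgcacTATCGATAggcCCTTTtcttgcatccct
eRF1: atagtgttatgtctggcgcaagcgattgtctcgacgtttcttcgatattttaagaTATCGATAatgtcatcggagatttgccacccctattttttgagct
eEF1delta: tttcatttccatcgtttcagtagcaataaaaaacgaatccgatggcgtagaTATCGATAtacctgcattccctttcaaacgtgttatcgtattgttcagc
eIF4B: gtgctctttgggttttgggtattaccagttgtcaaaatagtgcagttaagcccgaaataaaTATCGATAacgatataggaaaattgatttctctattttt
eIF2alpha: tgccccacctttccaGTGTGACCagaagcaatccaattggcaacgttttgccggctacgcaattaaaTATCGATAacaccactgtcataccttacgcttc
The eEF1delta and eIF4B promoters, each with a DRE upstream of the start site, had no promoter peak in the pooled list or in any replicate list. The nearest optimal summit was 1321 bp from eEF1delta but 4979391 bp from eIF4B. A wide region around eIF4B thus lacked optimal peaks, and its missing peak is not particular to this promoter. The eIF2alpha promoter, with a DRE and an Ohler 1 core, had a pooled peak only at rank 19807.

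The TCT initiator, a pyrimidine-rich start site element known from ribosomal protein genes, was sought as TCTTT or CCTTT with its C within 5 bp of the canonical start site, on the sense strand. It was found at 4 of 23 bound translation factor genes (eEF2, eEF5, eIF3f1 and eIF4A) and 1 of 31 unbound ones (eIF3i), or 9.26% of all 54. The eIF4A match and the eIF4A peak belong to different start sites, since no optimal summit lay within 500 bp of its canonical one. The TCT initiator was found at 42.4% of cytosolic ribosomal protein genes and 2.2% of all protein-coding genes.

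The eIF6 promoter had the strongest peak of the set. The eIF6 protein binds the large ribosomal subunit, keeps it from joining the small one too early and takes part in making it. The peak of eIF6 (FBgn0034915, minus strand, 2R from 23849246 to 23850301) covered 23850234 to 23850561, and its summit lay 103 bp upstream. That summit fell in an intron of another protein-coding gene, but no start site of another gene lay within 500 bp of it. The eIF6 peak stood at rank 34 in the pooled list and at ranks 32, 40 and 33 in replicates 1, 2 and 3. The next translation factor gene, eEF1gamma, stood at pooled rank 231. Of the other members of this group, eIF5B, a GTPase that joins the subunits, ranked 4347 in the pooled list and 2855, 4902 and 4370 in replicates 1, 2 and 3, with its summit at the start site. The gene for eIF5, which stimulates GTP hydrolysis by eIF2, had no pooled promoter peak and only a peak at rank 29975 in replicate 1.

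Of the 8 elongation factor genes, 4 were bound, with strong peaks, and 4 were unbound. The bound share was 50%, against 22.8% of other protein-coding genes. The gene for eEF1gamma (FBgn0029176, plus strand of 3R, 29220172 to 29222109), a subunit of the nucleotide exchange complex of eEF1alpha, ranked 231 in the pooled list and 192, 209 and 369 in replicates 1, 2 and 3. The gene for eEF1alpha1, which carries aminoacyl-tRNA to the ribosome, ranked 628 (403, 707 and 1301 in the replicates). The gene for eEF5, the hypusine-containing factor also called eIF5A, ranked 756 (619, 794 and 1049). The gene for eEF2, the translocase, ranked 944 (754, 827 and 1587). The weakest of their replicate ranks was 1587, and the summits lay at most 53 bp from an annotated start site. At eEF1alpha1 this was an alternative start site, and no optimal summit lay within 500 bp of the canonical one.

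The 4 unbound elongation factor genes were weak or absent in the replicates. The paralogue eEF1alpha2 ranked 10166 in the pooled list and 9405, 12534 and 25684 in the replicates. The gene for eEF1beta, another exchange subunit, had no pooled promoter peak, although replicate 3 held one at rank 6788 and replicate 2 at rank 21595. The gene for eEFSec, the selenocysteine-specific factor, had peaks at rank 15350 in replicate 1 and 16625 in replicate 3. No list held one at eEF1delta.

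The genes for eIF1 and eIF1A, which take part in start codon selection, were both bound, but at promoters shared with a neighbour. The eIF1 summit (rank 293, and 233, 295 and 462 in the replicates) lay 297 bp upstream of eIF1 and 84 bp from the start site of RpL28, a ribosomal protein gene. The eIF1A summit (rank 3485, and 4515, 4004 and 2957) lay 146 bp upstream of eIF1A and 73 bp from the start site of Vps39. The peak cannot be assigned to one gene of such a pair.

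The eIF2 complex carries the initiator tRNA to the small subunit, and eIF2B recharges it with GTP. The gene for eIF2gamma ranked 2951 (2474, 3449 and 4043 in the replicates). Its summit lay 17 bp from the start site of Set and 77 bp upstream of the start site that eIF2gamma has in common with Su(var)3-9, a histone methyltransferase gene in the same transcription unit. The gene for eIF2beta ranked 4042 (4148, 5983 and 4548), with its summit 283 bp upstream. The gene for eIF2alpha, the subunit phosphorylated under stress, was unbound at ranks 8366 and 21694 in replicates 1 and 2, with no peak in replicate 3.

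None of the 5 eIF2B subunit genes was bound, and none was in the top 4900 of any replicate. With 22.8% of other protein-coding genes bound, a count of none among 5 genes says little about the complex. The gene for eIF2Bgamma came closest at pooled rank 5870 (7588, 6109 and 5426 in the replicates), with its summit 5 bp from the start site. The gene for eIF2Bepsilon, the catalytic subunit, ranked 5907 and 6988 in replicates 1 and 2 and had no peak in replicate 3. The start site of eIF2Bbeta lay 687 bp from the summit of the strongest peak in the pooled list, which is nearest to Ugalt, a UDP-galactose transporter gene. A window of 1000 bp would therefore count eIF2Bbeta as bound at rank 1, while within 500 bp it had only a peak at rank 20304. The same wider window would add eIF2Bdelta through a summit 700 bp away at rank 4224.

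The alternative initiator tRNA carriers eIF2A and eIF2D were both bound. The eIF2A gene ranked 894 (973, 720 and 1497 in the replicates), and the eIF2D gene ranked 1645 (1328, 1689 and 2365). Neither had another protein-coding start site within 500 bp of its summit.

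The eIF3 complex is the large scaffold on the small ribosomal subunit. Of its 16 genes 6 were bound (37.5%), against 22.8% of other protein-coding genes. The gene for eIF3c ranked 409 in the pooled list and 517, 414 and 380 in the replicates. The gene for eIF3h ranked 703 (877, 404 and 675), with its summit in an intron, 274 bp downstream of one of its start sites and within 500 bp of the start site of senju. The gene for eIF3a ranked 1231 (661, 1740 and 2667), with its summit nearer to the start site of CG1074. Of the 6 genes, 5 were in the top 4900 of every replicate. The gene for eIF3m ranked 1655 (1683, 2332 and 1548), and the gene for eIF3f1 ranked 3109 (3306, 2915 and 3780). The gene for eIF3d1 ranked 4376 and was in the top 4900 of replicate 3 only, at ranks 5459, 7932 and 3670.

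The 10 unbound eIF3 genes ran from just below the threshold to none at all. The gene for eIF3b ranked 6803 (5982, 11373 and 7696) with its summit in a coding exon. The gene for eIF3k ranked 7278 in the pooled list but 6226, 4993 and 27730 in the replicates, so replicate 3 stood apart. Pooled peaks of eIF3l, eIF3d2, eIF3f2 and eIF3g1 ranked between 9857 and 17563, and each of these genes lacked a promoter peak in at least 1 replicate except eIF3d2. The genes for eIF3e, eIF3g2, eIF3i and eIF3j had no promoter peak in any list.

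The eIF4 group recognises and unwinds the capped mRNA end. Of its 13 genes 4 were bound (30.8%), near the 22.8% of other protein-coding genes for so few genes. The gene for eIF4EHP, a cap-binding repressor of translation in the fly embryo, was the strongest at rank 791 (835, 556 and 857 in the replicates). The gene for eIF4E1, the main cap-binding protein, ranked 2918 (1453, 4757 and 3903), and the gene for eIF4A, the helicase, ranked 3099 (2964, 1815 and 4509). The gene for eIF4G2 ranked 4855 (4957, 6557 and 3966), with its summit equally near to a start site of CG33111. Of the unbound genes, eIF4B, eIF4E3, eIF4E4, eIF4E5, eIF4E7 and eIF4H2 had no promoter peak in any list. Pooled peaks of eIF4E6, eIF4G1 and eIF4H1 ranked 11123, 14052 and 16869. The eIF4B gene (minus strand of 3L, 27842669 to 27858271) lay 4979391 bp from the nearest optimal summit.

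Of the release factors, the gene for eRF1, which reads stop codons, was bound at rank 2083 (1970, 2042 and 2940 in the replicates). The gene for eRF3, its GTPase partner, was not, at rank 7865 (9099, 10076 and 3867). It was the 1 unbound translation factor gene that entered the top 4900 of a replicate.

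Where the fly has a pair of genes for one factor, none of the pairs named here had both genes bound. These pairs are few, and only 42.6% of all translation factor genes and 22.8% of other genes were bound. Among the eIF4E genes, eIF4E1 (rank 2918) and eIF4EHP (rank 791) were bound and eIF4E3 to eIF4E7 were not. Of the pairs, eEF1alpha1, eIF3d1 and eIF3f1 were bound and eEF1alpha2, eIF3d2 and eIF3f2 were not. Neither gene of the eIF3g or the eIF4H pair was bound. In the eIF4G pair, eIF4G2, which is known for its role in the testis, was bound at rank 4855, near the threshold, and eIF4G1 was not.

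**Figure D2:**
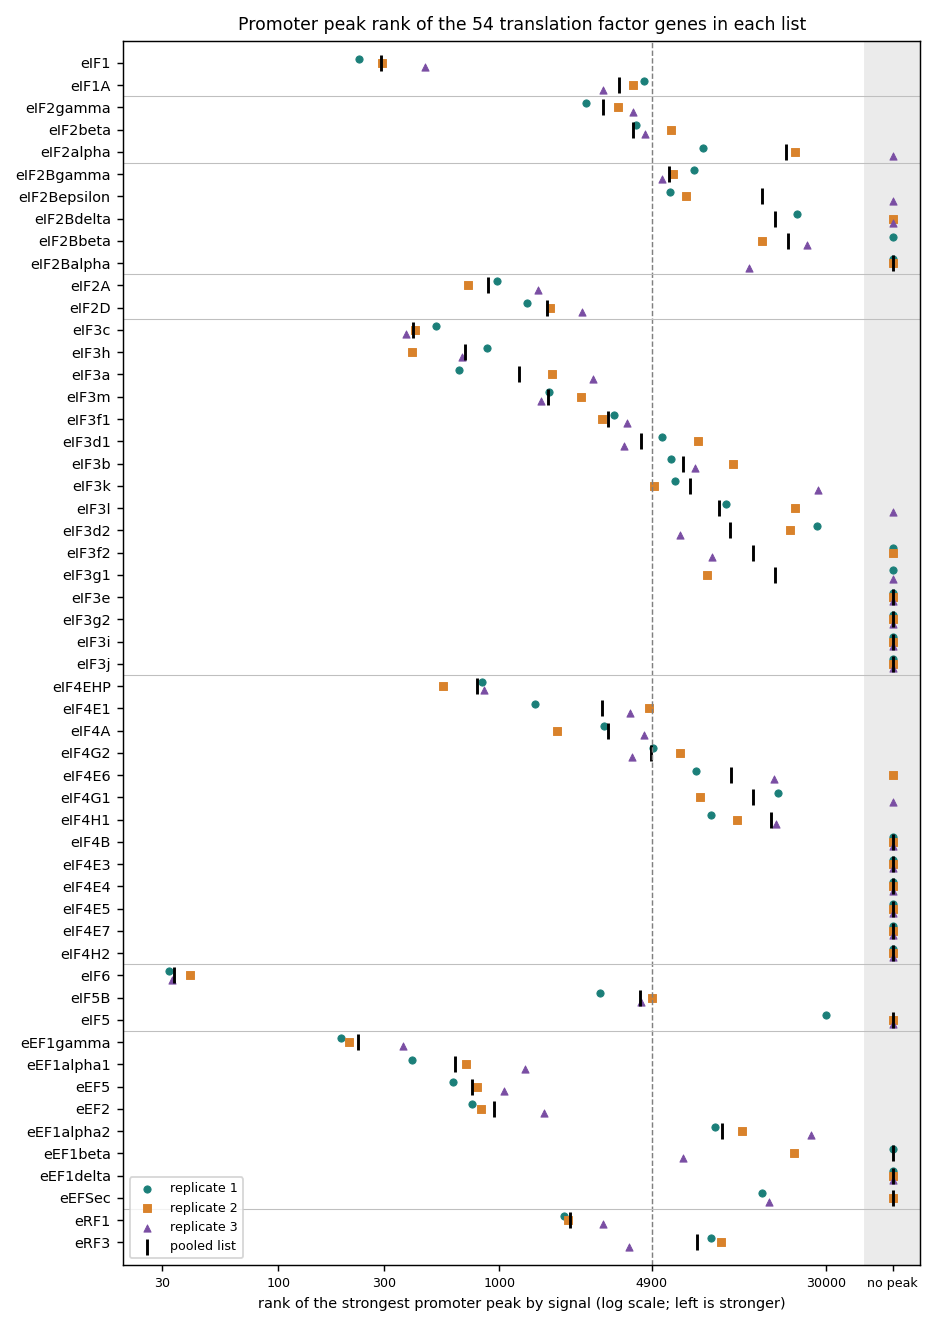
Rank of the strongest promoter peak of each of the 54 translation factor genes (rows, grouped by factor) in replicates 1 to 3 and in the pooled list, on a log axis with stronger peaks to the left. The dashed line marks rank 4900, the size of the optimal list, and the grey strip holds genes with no promoter peak in that list. The eIF6 points sit together at the far left (ranks 32 to 40), while most unbound genes scatter between replicates.

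Just inside the threshold of rank 4900 stood eIF5B, eIF3d1 and eIF4G2, at pooled ranks 4347, 4376 and 4855. Just outside stood eIF2Bgamma, eIF3b and eIF3k, at 5870, 6803 and 7278. All 23 bound genes had a promoter peak in all 3 replicate lists. Of the 16 genes with only a weaker pooled peak, 7 had one in all 3.

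In the whole pooled list 39 translation factor genes (72.2%) had a promoter peak, against 54.3% of other genes. The 15 without one (27.8%, against 45.7% of other genes) included 11 with no promoter peak in any replicate list. Genes with none in any replicate list were 20.4% of translation factor genes and 32.3% of other genes. With genes lacking a peak set to 0, the median percentile of the 54 genes in a replicate list was 74.1 ± 1.92, against 17.3 ± 5.02 for all other genes (SD, n = 3 each). Averaging each gene over the replicates first gave medians of 56.8 and 23.3. Among bound genes alone the medians were 94.0 ± 1.74 and 92.9 ± 0.0597 (SD, n = 3 each), a difference smaller than the spread of the translation factor values.

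**Figure D3:**
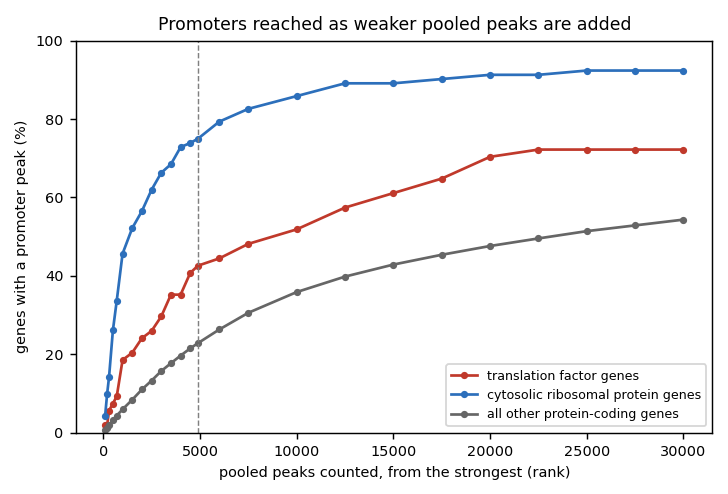
Percent of genes with a promoter peak (vertical axis) as pooled peaks are counted from the strongest to the weakest (horizontal axis, rank), for translation factor genes (red), cytosolic ribosomal protein genes (blue) and all other protein-coding genes outside the translation factors (grey). At the dashed line, rank 4900, the curves stand at 42.6%, 75.0% and 22.8%.

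The summits of bound translation factor genes lay close to start sites. The median distance was 65 bp, against 113 bp for other bound genes, and 20 of 23 (87.0%) lay within 150 bp, against 61.8%. Summits stood at or upstream of the start site in 18 genes (78.3%), against 84.4% of other bound genes. Intergenic sequence held 13 of the 23 summits, 5' UTRs 6 and introns of any protein-coding gene 4, and no bound summit lay in a coding exon. These places are not given here for other bound genes, so they are not read as a trait of the set. With a window of 100 bp, 17 translation factor genes were bound and 11.3% of other genes. The 6 genes lost were eIF1, eIF1A, eIF2beta, eIF4E1, eIF4EHP and eIF6, of which the last pair missed the narrower window by 1 and 3 bp. With canonical start sites only, 21 translation factor genes and 20.1% of other genes were bound, and eEF1alpha1 and eIF4A were lost.

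**Figure D4:**
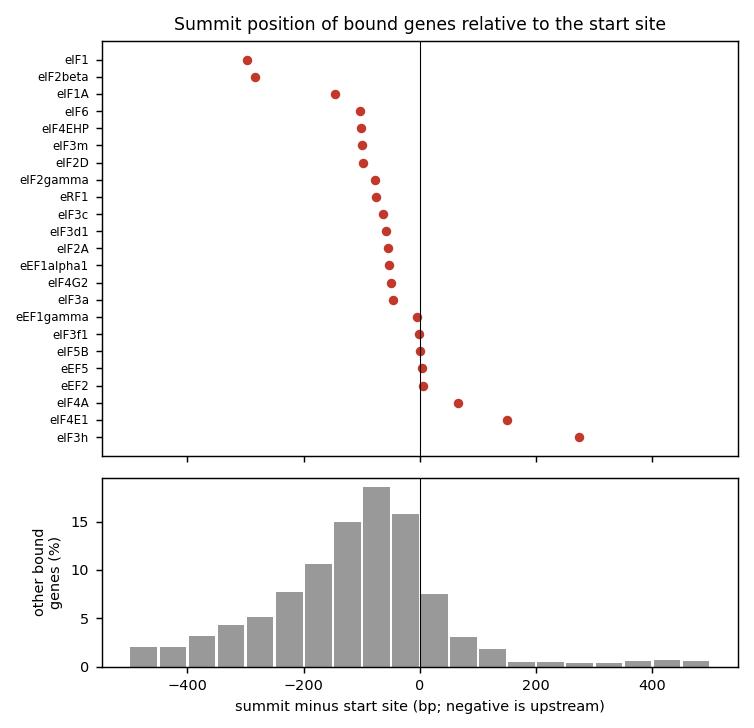
Position of the promoter summit relative to the nearest start site of the gene, in bp with upstream negative, for each bound translation factor gene (upper panel, 1 point per gene) and as a histogram in 50 bp bins for 3170 other bound genes (lower panel, percent). Of the 23 points, 20 lie within 150 bp of the start site.

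Promoters shared with a neighbour were bound more often in the whole genome, so sharing was counted separately. Among genes with no other protein-coding start site within 500 bp of their own, 12 of 31 translation factor genes (38.7%) and 1413 of 9605 other genes (14.7%) were bound. Among genes that share a promoter window the values were 11 of 23 (47.8%) and 41.0%. The DRE was present at 4 of 14 bound translation factor summits with no other start site within 500 bp (28.6%) and at 5 of 9 summits with one (55.6%). For other bound genes the shares were 6.17% and 13.3%. Counting a summit only for its nearest start site left 19 translation factor genes bound, without eIF1, eIF1A, eIF2gamma and eIF3a, and 17.3% of other genes.

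Bound translation factor genes were found on 4 arms, with 3 of 6 genes on 2L, 5 of 13 on 2R, 6 of 12 on 3L and 9 of 15 on 3R. None of the 7 genes on X was bound, namely eIF2alpha, eIF2Bbeta, eIF2Bepsilon, eIF3g1, eIF4E7, eIF4H1 and eIF5. With 22.0% of other X genes bound, a count of none among 7 genes says little about the X. The median percentile on X was 23.7 for translation factor genes and 27.2 for other genes. The only gene on chromosome 4, eIF4G1, was unbound, as were all but 8.86% of other genes on 4. Beyond the promoter, optimal summits lay inside the gene and more than 500 bp from its start sites in 3 genes, all of them bound (eEF1alpha1, eIF4EHP and eIF5B). The 31 unbound genes lay at a median of 11333 bp from the nearest optimal summit, and 24 of them more than 5000 bp away. By definition none had an optimal summit within 500 bp. Neither these distances nor the summits inside genes are given here for other genes, so whether translation factor genes differ was not tested.

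Other genes of the translation pathway were read from 6 lists of regulators and partners, of which the strongest bound genes and the first unbound ones in alphabetical order are named. Their shares of bound genes stand beside 22.8% of all protein-coding genes other than translation factors, and the lists are short. Of 7 genes in a mixed list of eIF4E-binding, repressor and scaffold genes, 3 were bound (42.9%). Thor, the gene of the 4E-binding protein, stood at rank 530 (642, 1063 and 335 in the replicates), Rack1, a ribosomal scaffold gene, at rank 954 and Paip2 at rank 3525. The genes 4E-T and bru1 had no pooled promoter peak. Of 12 kinase and TOR pathway genes, 4 were bound (33.3%). Sesn stood at rank 65, with its summit equally near to CG46429. The mTor peak at rank 878 was nearest to Vha68-1, and that of Gcn2, an eIF2alpha kinase gene, at rank 3119 was nearest to Ugt35D1. Lk6, a kinase gene for eIF4E, ranked 4219, while Akt ranked 7469 and gig had no pooled peak.

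Of 6 genes in a mixed list of poly(A) binding, helicase and related genes, 4 were bound (66.7%). The strongest was larp at rank 23 (20, 32 and 19 in the replicates). NAT1, bel and pAbp, the poly(A) binding protein gene, ranked 1102, 2485 and 3167, and the unbound Dhx15 and vas ranked 9374 and 8157. Of 10 genes in a mixed list of ribosome rescue, recycling and Upf genes, 5 were bound (50%). They included Ltn1, pix, HBS1 and MCTS1 at ranks 2264, 2401, 2577 and 2975. The MCTS1 summit was nearest to rux, and Clbn and DENR had no promoter peak in any list. Aminoacyl-tRNA synthetase genes were bound at 7 of 20 (35.0%). SerRS ranked 241 (274, 194 and 285 in the replicates), GluProRS 840, ArgRS 870 and IleRS 913, of which the GluProRS and ArgRS summits were nearest to AP-1sigma and CG8578. AlaRS and alpha-PheRS were unbound at ranks 14695 and 16655. Of 9 mitochondrial translation factor genes, mRF1 was the 1 bound (11.1%), at rank 4404 (4496, 8796 and 4266). The unbound mEFTs ranked 8969 and mEFG1 had no pooled peak.

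The 42.6% of translation factor genes lay below the 75.0% of 92 cytosolic ribosomal protein genes and close to the 46.6% of 73 mitochondrial ribosomal protein genes. The median pooled rank of bound genes was 1645 for translation factors, 808 for cytosolic and 2186.5 for mitochondrial ribosomal proteins.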

How the data were processed

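Peaks were measured by ChIP-seq in 3 biological replicates, numbered as in the labels. The authors deposited narrowPeak lists in which column 7 is a signal value per peak and column 10 the summit offset. The optimal list equals the strongest 4900 of the 30000 pooled peaks, and 5 of its intervals repeat with another summit. Which caller and aligner made them is not given in the sources used here. Only dm6 lists were used, because the annotation at hand is dm6, and all peaks ended within the arms of the reference. Neither the control IP nor any signal track was analysed here, and depth is unknown.

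Start sites came from Ensembl release 115, all transcripts of each protein-coding gene. Each gene took its strongest peak with a summit within 500 bp, and a percentile is the share of the list ranked below that peak (0 without a peak). Motifs were exact matches on both strands within 100 bp, except the TCT initiator (either of its spellings, sense strand, within 5 bp). Of 69 symbols in the pathway lists, 64 matched the annotation, 2 of them (mTor and larp) after respelling. All bound members are named; unbound members beyond the first 4 per factor group, which the naming rule gives by range, were named after their values were seen. Pathway lists name up to 4 bound genes by signal and 2 unbound genes in alphabetical order. The members, lists and motifs were chosen with earlier results of these data known. With 1 group no condition was compared, and no test was run over genes. Python 3.11.15, pandas 2.3.3 and numpy 2.4.6 were used, and the gene assignment was tested on simulated data. Alternatives were other windows, start site sets, assignments, peak subsets and replicates left out.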

Additional observations from a re-analysis of the deposited data

How the results depend on the processing

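The count of bound translation factor genes was 23 and ran from 17 to 25 over other windows, start site sets and assignments, and over the replicates' own top peaks. It was 14 in the stronger 2450 peaks (13.0% of other genes) and 12 among the 31 genes that share no promoter window. The share of other genes was lower than that of translation factor genes under each of these alternatives. The count in the top 4900 of all 3 replicates was 11 instead of 19 with a window of 100 bp, and 19 to 21 without each replicate in turn. The median percentile, 56.8, was 32.8 with a window of 100 bp, 75.5 with 1000 bp, 54 with the canonical start site, 51.9 with the nearest start site only and 44.5 where the peak interval had to hold the start site. It ran from 53.7 to 69.6 without each replicate in turn and was 89.3 over the 30 genes with a promoter peak in every replicate. The cause was not tested. GAGAG was found at 6 instead of 3 bound genes within 250 bp of the summit, and the DRE at 6 to 10. No paired analysis was possible because there is 1 group. With no read totals, no limit on weak peaks can be set.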
